A study of Mus musculus with 3 samples.

Results

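Vegfa, Vegfb, Vegfc, Kdr, Flt1, Nrp1, Angpt1, Angpt2, Tek and Apln, the 10 genes described here, encode ligands and receptors of vascular endothelial growth factor (VEGF) and angiopoietin signalling together with apelin. They were chosen by symbol, and they are 10 of the 28692 genes in the deposited matrix; all 10 had counts and all passed the filter on low counts. Their levels were read in cell classes defined by a pair of marker genes, each with at least 1 UMI (unique molecular identifier, a count of captured transcripts): Pecam1 and Cdh5 for endothelial cells, Rgs5 and Higd1b for mural cells, Upk3b and Lrrn4 for mesothelial cells, Dcn and Col3a1 for fibroblasts, and Epcam and Cdh1 for epithelial cells. A cell that fitted more than 1 class was dropped. None of the 10 genes served to set these classes. Vegfa was later used to split the epithelial and fibroblast classes into cells with and without a Vegfa UMI.

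The study surveyed gene expression in single cells of 3 pancreatic tumours of KPf/fC mice by 10x 3' v2 sequencing of cells sorted as CD45-, CD31- and PDGFRa-. KPC mice, as background, are an engineered model of pancreatic cancer that uses a pancreas-directed Cre; the labels give the strain name and neither the alleles, the age nor any treatment. All 3 tumours belong to 1 group with no control, so classes were compared within tumours. Whether the numbered tumours are from separate animals is not stated in the labels. The fits took the tumour as a block, so the p-values measure how much class differences vary between these 3 tumours. That spread was estimated over all classes together. For the endothelial class only tumours 1 and 3 entered, and the p-values do not cover other animals. CD31 is encoded by Pecam1, so the endothelial class holds cells that carried Pecam1 RNA and still passed a sort against the protein, and it may not stand for the endothelium of the tumours. The sort also went against PDGFRa, encoded by Pdgfra. The fibroblast class therefore holds cells left after that sort, and its levels and shares may not stand for all fibroblasts of the tumours.

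VEGFs are secreted ligands that bind receptor tyrosine kinases on endothelial cells, where KDR (VEGF receptor 2) drives growth and migration, FLT1 (VEGF receptor 1) binds VEGF-A tightly with weak signalling, and NRP1 is a co-receptor. VEGF-A is known as a target of hypoxia-inducible factors. Angiopoietin 1 from perivascular and stromal cells activates the endothelial receptor TIE2, encoded by Tek, and stabilises vessels, while angiopoietin 2 acts on the same receptor and is known from sprouting and remodelling vessels. Apelin, encoded by Apln, is a peptide ligand of the receptor APLNR and is known from endothelial tip cells.

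Of 19576 barcodes, 5874, 6087 and 7615 belonged to tumours 1, 2 and 3, with 60801677, 67262634 and 53162622 UMIs, and 19001 cells were kept. The tumours shared 50 (1 and 2), 65 (1 and 3) and 57 (2 and 3) barcode sequences in pairs. The endothelial class held 186, 15 and 57 cells in tumours 1, 2 and 3, the mural class 193, 128 and 253, the mesothelial class 6, 0 and 5, the fibroblast class 1826, 1892 and 2185, and the epithelial class 1911, 1482 and 2973. A further 4426 cells (23.3%) fitted no class and 1463 (7.70%) fitted more than 1. The mesothelial class was too small for a comparison, mainly because 230, 74 and 58 cells carried both the mesothelial and the fibroblast pair. The 15 endothelial cells of tumour 2 were below the minimum of 20 cells for a summed profile, so endothelial means and fits rest on tumours 1 and 3 (n = 2) and those of the other classes on 3 tumours.

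The endothelial name held up against 6 markers outside the rule (Cldn5, Tie1, Emcn, Egfl7, Eng and Plvap). They summed to 4538, 2780 and 4298 CPM, UMIs per 1000000 UMIs of the class, in endothelial cells of tumours 1, 2 and 3, and to 223, 181 and 311 CPM in mural, 73.8, 37.2 and 74.5 CPM in fibroblast and 18.6, 9.40 and 6.93 CPM in epithelial cells. The 15 endothelial cells of tumour 2 were therefore the lowest of the 3 endothelial profiles. The endothelial class of tumour 3 also stood apart: haemoglobin RNA (Hba-a1 and Hbb-bs) reached 7491 CPM there against 0.930 CPM in tumour 1 and 0 in tumour 2, the lymphatic markers Prox1, Lyve1, Flt4 and Mmrn1 summed to 558 CPM against 83.7 and 92.3 CPM, and the 6 fibroblast check markers to 1203 CPM against 230.0 and 174 CPM. Their part in the endothelial results was not tested. Ptprc, which encodes CD45, was at 0 in the endothelial and mural classes of every tumour. Of the fibroblast class, 80.3%, 61.5% and 86.6% of cells carried Lum, Dpt or Pdgfra; the remaining cells of this class met the Dcn and Col3a1 rule alone.

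The genes differed in which cells held their transcripts. The endothelial class contributed 0.782% of all UMIs of the kept cells, but 56.1% of the 280 Tek UMIs and 40.0% of the 1560 Kdr UMIs. Angpt1 (80.5%), Nrp1 (59.4%) and Apln (50.3%) had most of their UMIs in the fibroblast class, which contributed 28.1% of all UMIs. Vegfa had 43.1% of its UMIs in epithelial and 25.4% in fibroblast cells, and 0.0359% in endothelial cells. These shares depend both on how many sorted cells a class held and on the level in them. Levels in CPM, which do not depend on the number of cells, are given below. Flt1 was the member with the largest share, 40.8%, in cells that fitted no class.

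**Figure D1:**
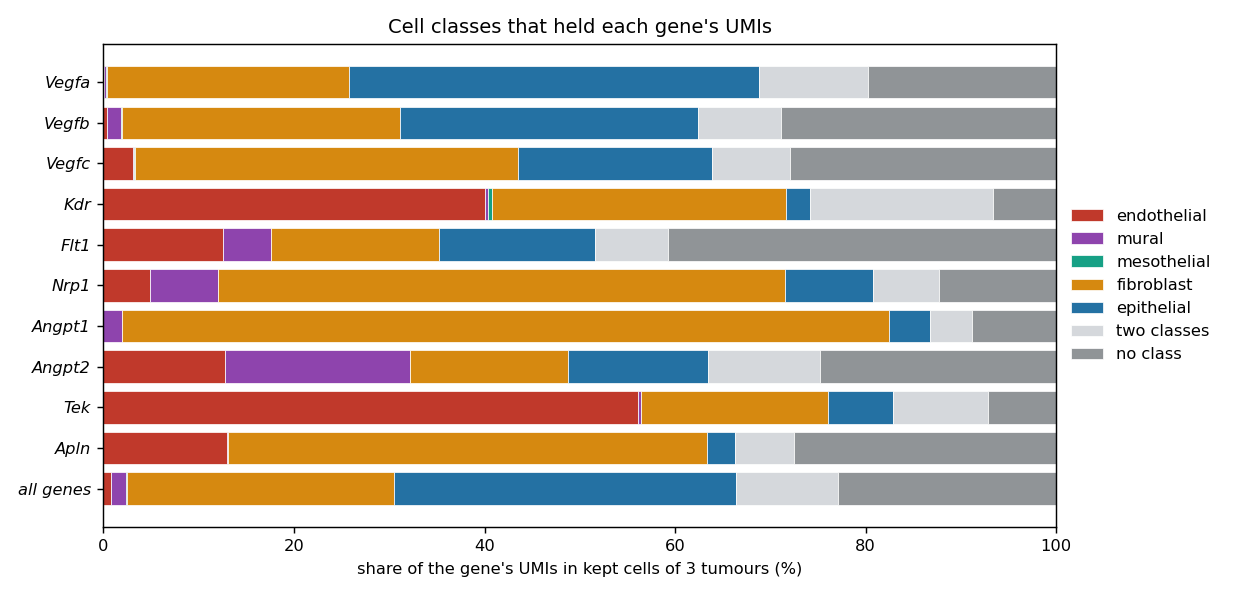
Share of each gene's UMIs (x axis, %) in kept cells of the 3 tumours together, split by cell class, for the 10 genes and, in the bottom bar, for all genes. Tek and Kdr stand out by their endothelial share (56.1% and 40.0% against 0.782% for all genes), Angpt1 by its fibroblast share (80.5%) and Vegfa by its epithelial share (43.1%).

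Between classes, the summed counts were fitted with edgeR's quasi-likelihood test with the tumour as a block, Benjamini-Hochberg adjustment over 14810 genes and a threshold of 0.05, in which a gene past the threshold is called higher or lower. Endothelial over mural cells, 5 of the 10 genes were called higher and none lower, where 12.5% of all tested genes were called, 6.12% higher and 6.34% lower (at an unadjusted p under 0.05, 3 members were lower, and DESeq2 called 1 lower). Endothelial over epithelial cells, 7 were higher and 1 lower, against 22.9% of all genes called (10.7% higher and 12.2% lower). Mural over fibroblast cells, 2 were higher and 4 lower, against 15.3% of all genes (5.98% higher and 9.28% lower). Mural over epithelial cells, 4 were higher and 2 lower, against 34.9% (16.2% higher and 18.7% lower). Fibroblast over epithelial cells, 5 were higher and none lower, against 39.8%, 22.3% higher and 17.5% lower (at an unadjusted p under 0.05, 1 member was lower, and DESeq2 called none lower). The median log2 fold change of the 10 genes was 1.61, 4.52, -1.68, 0.81 and 1.62 in these comparisons in the same order, beside medians of -0.08, -0.22, -0.17, -0.13 and 0.02 over all tested genes. Comparisons that use the same class share its sums and are not independent of each other.

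**Figure D2:**
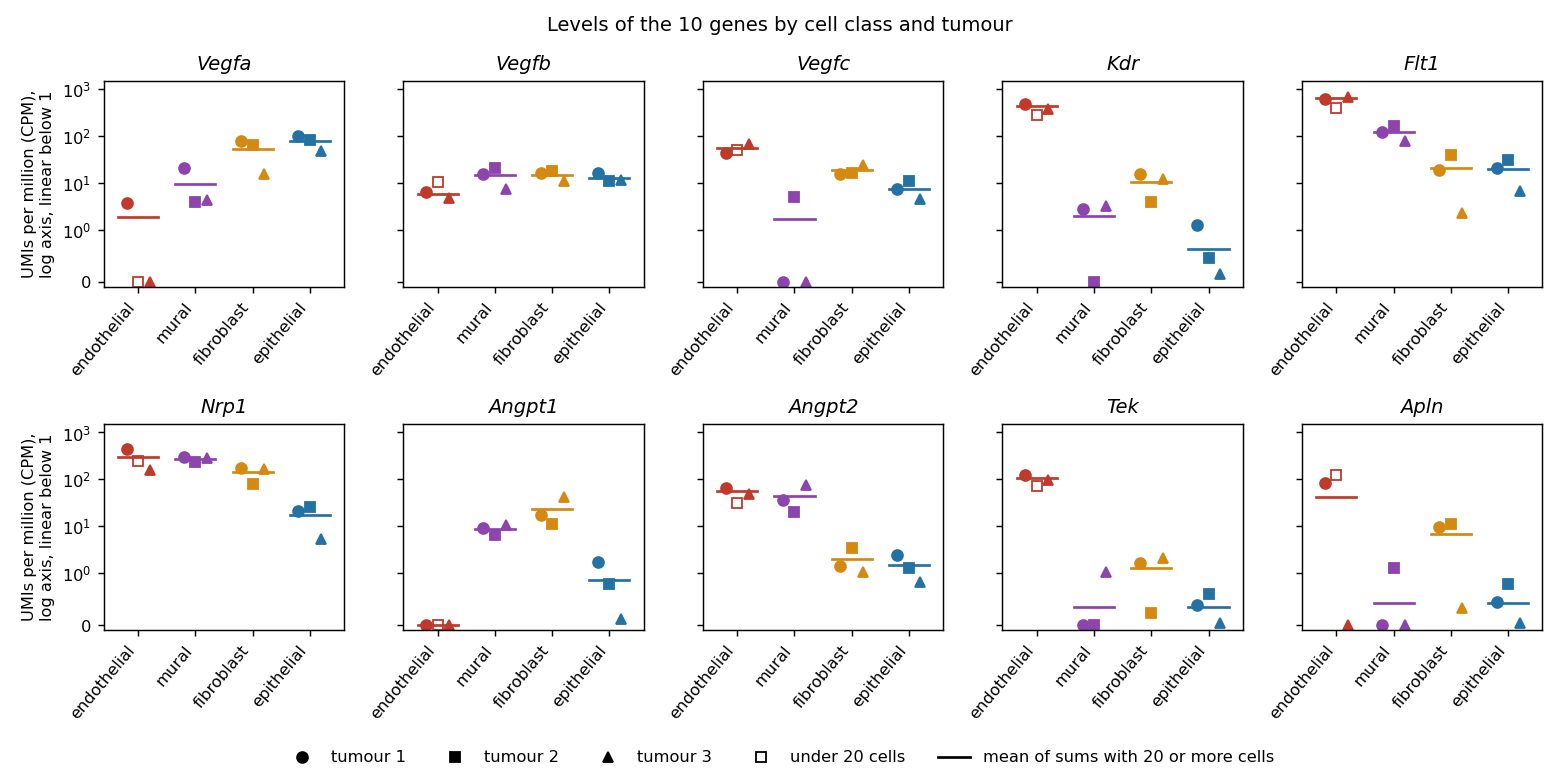
Level of each gene in CPM (y axis, log scale, linear below 1 CPM) by cell class, with 1 symbol per tumour and a line at the mean over summed profiles of 20 or more cells; the open square marks the 15 endothelial cells of tumour 2. Kdr, Flt1 and Tek are highest in endothelial cells of every tumour, while Vegfa is highest in the epithelial class and has its lowest mean in the endothelial class.

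Vegfa, the main VEGF ligand, was lowest in the vessel classes. It reached 3.72, 0 and 0 CPM in endothelial cells of tumours 1, 2 and 3, 21.0, 3.84 and 4.23 CPM in mural cells, 78.9, 65.0 and 15.2 CPM in fibroblast cells and 101, 83.7 and 48.4 CPM in epithelial cells. The endothelial level rests on 4 UMIs, all in tumour 1. Epithelial, fibroblast and mural levels fell in this order in every tumour, and the endothelial level was below them in tumour 1. In tumours 2 and 3 it was 0, but the mural levels there rest on 3 and 4 UMIs. With 97497 and 206127 UMIs in all, the endothelial cells of tumours 2 and 3 were too few to place their 0 below the mural levels. Fibroblast and epithelial ranges overlapped across tumours, as did mural and fibroblast ranges. Vegfa was called lower in endothelial than epithelial cells (log2 fold change -5.35 ± 0.70 SE, adjusted p 9.51e-05, edgeR's quasi-likelihood test, Benjamini-Hochberg adjusted; lower in 2 of 2 tumours), in mural than epithelial cells (-3.21 ± 0.40, adjusted p 3.01e-05; 3 of 3) and in mural than fibroblast cells (-2.48 ± 0.40, adjusted p 0.000822; 3 of 3). Without tumour 1 the endothelial class had no Vegfa UMI and the call was lost (adjusted p 0.0651), mural over epithelial moved to -4.10 and mural over fibroblast to -3.22; without tumour 2 the last was -1.87. Endothelial and mural cells were not called apart (-2.14 ± 0.88, adjusted p 0.150, by the same test), though they were without tumour 2 (adjusted p 0.0460).

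Between fibroblast and epithelial cells, Vegfa missed the threshold by little, at -0.73 ± 0.28 (adjusted p 0.0561, edgeR's quasi-likelihood test) with the fibroblast level lower in 3 of 3 tumours. The call was made, at -1.0 (adjusted p 0.0117), without tumour 2. After each cell was thinned to 3000 UMIs, 15.3%, 17% and 3.83% of fibroblast cells and 21.2%, 20.6% and 13.1% of epithelial cells of tumours 1, 2 and 3 kept a Vegfa UMI; at full depth the shares were 30.9%, 35.8% and 7.14% against 49.9%, 41.8% and 28.4%. Tumour 3 was the lowest in both classes. Endothelial cells, at 2.15% (4 of 186, exact 95% interval 0.589% to 5.41%), 0% and 0% at full depth, gave the lowest shares; the 0 of 57 in tumour 3 allows up to 5.26%, taken as 3 cells of 57. Median depth was 4869, 4743 and 2938 UMIs per cell in the endothelial class, 7326.5, 8960 and 4953 in the fibroblast class and 10616, 8958.5 and 7727 in the epithelial class. Intervals and limits cover counting error only.

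Vegfb, a ligand of FLT1, had overlapping levels in mural, fibroblast and epithelial cells and a lower mean in endothelial cells. Its levels were 6.51, 10.3 and 4.85 CPM in endothelial cells of tumours 1, 2 and 3, from 9 UMIs in all, and 15.5, 20.5 and 7.40 CPM in mural, 16.1, 18.1 and 11.2 CPM in fibroblast and 16.6, 11.1 and 11.4 CPM in epithelial cells. The mural, fibroblast and epithelial means were 14.5 ± 6.61, 15.2 ± 3.54 and 13 ± 3.12 CPM (SD, n = 3 each). The endothelial mean was 5.68 ± 1.17 CPM (SD, n = 2), and none of the 5 comparisons among these classes called Vegfb; endothelial over epithelial came nearest, at -1.36 ± 0.52 (adjusted p 0.0780, edgeR's quasi-likelihood test), and without tumour 2 it was called (adjusted p 0.0354).

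Vegfc, the ligand of the lymphatic receptor FLT4, was highest in endothelial cells. It reached 44.7, 51.3 and 67.9 CPM in endothelial cells of tumours 1, 2 and 3, 0, 5.13 and 0 CPM in mural, 15.7, 16 and 23.8 CPM in fibroblast and 7.27, 11 and 4.49 CPM in epithelial cells. The endothelial values exceeded all others in every tumour, fibroblast values followed without overlap, and the mural class held 4 UMIs, all in tumour 2. Vegfc was called higher in endothelial than mural cells (5.29 ± 0.81, adjusted p 0.000602, edgeR's quasi-likelihood test; 2 of 2 tumours), in endothelial than epithelial cells (2.83 ± 0.53, adjusted p 0.00147; 2 of 2) and in fibroblast than epithelial cells (1.38 ± 0.38, adjusted p 0.0109; 3 of 3). It was lower in mural than fibroblast (-3.84 ± 0.74, adjusted p 0.00293) and mural than epithelial cells (-2.46 ± 0.82, adjusted p 0.0317), each in 3 of 3 tumours. Without tumour 2 the mural class had 0 UMIs and no fold is given. Without tumour 3 the fibroblast call was lost (0.77, adjusted p 0.178), endothelial over mural was 4.57 and mural over fibroblast -2.98, and mural over epithelial was lost without tumour 3 (-2.21, adjusted p 0.0730) and without tumour 1 (-1.72, adjusted p 0.212).

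Cells in which Vegfa was detected were then set against cells of the same class in which it was not, a comparison added after the data had been seen. After thinning to 3000 UMIs, with shallower cells left out, sums were made of cells that kept a Vegfa UMI and of those that did not, which gave 406, 306 and 377 Vegfa-detected against 1505, 1176 and 2505 undetected epithelial cells in tumours 1, 2 and 3, and 279, 322 and 71 against 1547, 1570 and 1781 fibroblast cells. Vegfa itself was left out. Of 14 genes of a hypoxia list, 8 were called higher and the other 6 were not called in Vegfa-detected epithelial cells, where 2.26% of 10082 genes were called, 1.56% higher and 0.704% lower (edgeR's quasi-likelihood test with the tumour as block), and 6 were higher and 8 not called in Vegfa-detected fibroblast cells, where 0.614% of 10754 genes were called, 0.465% higher and 0.149% lower. The median log2 fold change of the list was 0.87 and 1.08, against -0.00 and -0.03 over all genes. The list holds genes known to respond to low oxygen, and its members were chosen with earlier results of these data known. Without the tumour block 0 genes of the list were called in either class (over all genes, 129 and 106 had an unadjusted p under 0.05), and DESeq2 called 3 of 14 in each.

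In epithelial cells, Ankrd37, a target of hypoxia-inducible factor, had 70.6, 61.0 and 6.19 CPM in Vegfa-detected cells of tumours 1, 2 and 3 against 16.6, 27.2 and 4.39 CPM in undetected cells (log2 fold change 1.47 ± 0.22, adjusted p 0.000320, edgeR's quasi-likelihood test). Egln3, an oxygen-sensing prolyl hydroxylase, had 46.8, 52.3 and 12.4 CPM against 16.4, 22.1 and 6.79 CPM (1.24 ± 0.19, adjusted p 0.000586). Slc2a1, the glucose transporter GLUT1, had 126, 124 and 30.1 CPM against 42.3, 69.4 and 23.8 CPM (0.99 ± 0.16, adjusted p 0.000852). These 3 genes were higher in the Vegfa-detected cells of 3 of 3 tumours, with the smallest levels in tumour 3, where Ankrd37 rests on 7 and Egln3 on 14 UMIs. Bnip3, a mitophagy receptor, was also called higher, yet stood at 25.6 CPM in Vegfa-detected against 27.8 CPM in undetected epithelial cells of tumour 3. Adm, which encodes adrenomedullin, was called higher as well, with 72.2, 27.2 and 2.65 CPM in Vegfa-detected cells of tumours 1, 2 and 3 against 10.6, 11.1 and 5.85 CPM in undetected cells, so that it too was lower in tumour 3, from 3 UMIs. The remaining called genes were Ndrg1, Egln1 and Ero1l, and the number called ran between 5 and 9 when 1 tumour was left out, with 5 without tumour 1. Of the genes not called, Pdk1 was higher in the Vegfa-detected cells of every tumour. Car9 was lower in those of tumour 1, Hif1a and Epas1 in those of tumour 2, and Ldha and Pgk1 in those of tumour 3. Each of these was higher in its other tumours. All genes called in that class numbered 157 higher and 71 lower.

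In fibroblast cells, Bnip3 had 154, 331 and 103 CPM in Vegfa-detected against 34.3, 107 and 53.9 CPM in undetected cells of tumours 1, 2 and 3 (1.63 ± 0.19, adjusted p 0.000133, edgeR's quasi-likelihood test). Ero1l, an oxidase of protein folding, had 71.7, 258 and 51.6 CPM against 27.4, 92.1 and 22.5 CPM (1.37 ± 0.18, adjusted p 0.000327). Car9, a carbonic anhydrase, had 15.5, 119 and 18.8 CPM against 6.25, 27.6 and 5.62 CPM (1.86 ± 0.25, adjusted p 0.000398), and its call was lost without tumour 2 (1.39, adjusted p 0.376). All 3 genes were higher in the Vegfa-detected cells of every tumour, but in tumour 3 Car9 rests on 4 and Ero1l on 11 UMIs in those cells. Slc2a1, Ankrd37 and Egln3 were called as well, but tumour 3 had 1, 0 and 0 UMIs of them in its 71 Vegfa-detected cells. The number of hypoxia genes called ran between 4 and 10 when 1 tumour was left out, with 10 without tumour 3.

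Pgf, which encodes placental growth factor, a VEGF family ligand of FLT1, was called higher in the Vegfa-detected cells of both classes. It had 46.8, 15.3 and 5.31 CPM in Vegfa-detected epithelial cells of tumours 1, 2 and 3 against 5.76, 1.70 and 2.26 CPM in undetected ones (2.61 ± 0.33, adjusted p 6.66e-05, edgeR's quasi-likelihood test). It had 49.0, 98.3 and 18.8 CPM in Vegfa-detected fibroblast cells against 15.5, 15.9 and 5.43 CPM in undetected ones (2.13 ± 0.25, adjusted p 0.000124). The Vegfa-detected cells were higher in 3 of 3 tumours in each class, but in tumour 3 their Pgf level rests on 6 UMIs in epithelial and 4 in fibroblast cells. Neither call was made without the tumour block (adjusted p 1.00 in both classes). Of the other members, 4 could be tested in epithelial and 7 in fibroblast cells, and edgeR's quasi-likelihood test called 0 of them; at an unadjusted p under 0.05, 1 was higher and 2 lower in epithelial cells and 1 was higher in fibroblast cells. Apln came nearest, in fibroblast cells, with 1.69 ± 0.39 (adjusted p 0.0583, edgeR's quasi-likelihood test).

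**Figure D3:**
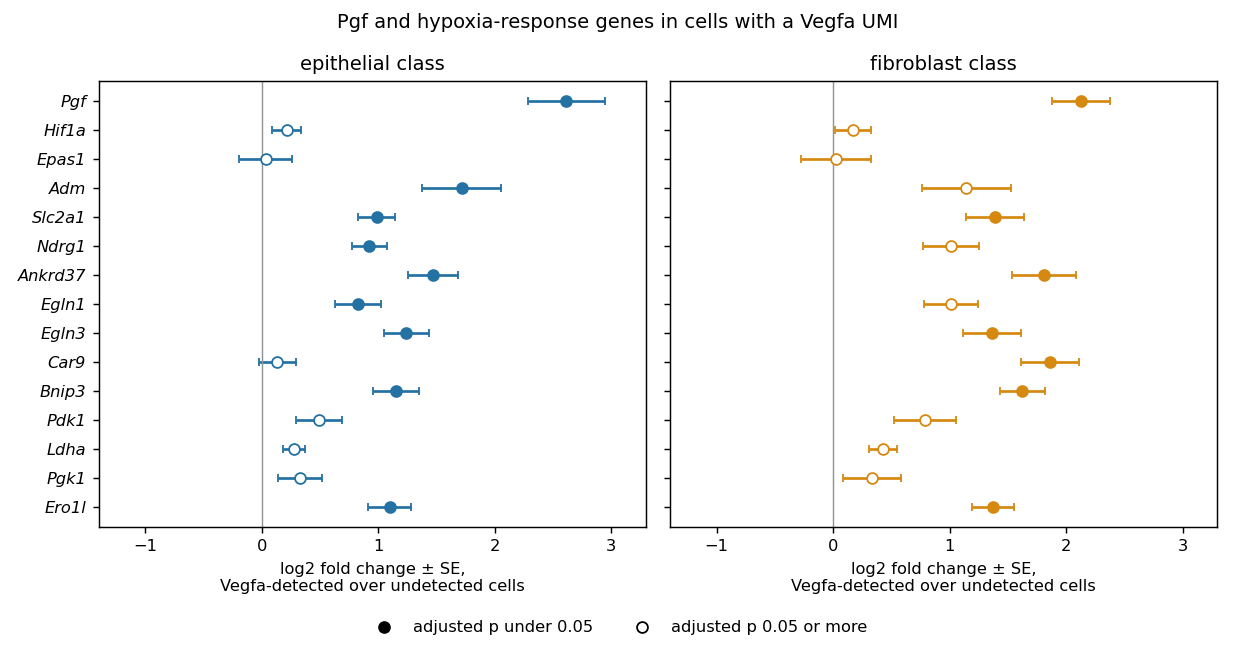
Log2 fold change ± SE (x axis) of Pgf and the 14 hypoxia-list genes in Vegfa-detected over undetected cells of the epithelial class (left) and the fibroblast class (right), from sums over 3 tumours after thinning to 3000 UMIs; filled points have an adjusted p under 0.05. Pgf lies at 2.61 and 2.13, and 8 and 6 of the 14 hypoxia genes are filled.

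Among the receptors, Kdr and Flt1 marked the endothelial class but spread differently beyond it. Their promoter windows, from 250 bases before to 50 after the RefSeq gene start (build GRCm38.p6), are shown with that of Tek because these 3 receptor genes were highest in endothelial cells in every tumour; capitals mark GGAA or its reverse complement TTCC, the core bound by ETS factors such as Erg and Fli1. The build of the deposited counts is not stated in the labels or file headers. Kdr lies at chr5:75978406-75978705, minus strand, Flt1 at chr5:147725962-147726261, minus strand, and Tek at chr4:94739039-94739338, plus strand.
Kdr: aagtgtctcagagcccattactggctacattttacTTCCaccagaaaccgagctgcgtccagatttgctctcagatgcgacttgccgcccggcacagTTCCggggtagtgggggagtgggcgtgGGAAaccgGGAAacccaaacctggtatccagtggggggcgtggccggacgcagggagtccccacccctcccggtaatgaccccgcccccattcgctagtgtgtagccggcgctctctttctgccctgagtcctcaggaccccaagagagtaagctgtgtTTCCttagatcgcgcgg
Flt1: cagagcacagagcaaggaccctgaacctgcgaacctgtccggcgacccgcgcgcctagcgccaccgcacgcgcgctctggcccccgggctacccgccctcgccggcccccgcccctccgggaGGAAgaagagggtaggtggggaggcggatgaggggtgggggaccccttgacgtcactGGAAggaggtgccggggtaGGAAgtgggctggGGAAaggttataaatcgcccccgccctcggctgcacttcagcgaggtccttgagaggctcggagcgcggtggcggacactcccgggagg
Tek: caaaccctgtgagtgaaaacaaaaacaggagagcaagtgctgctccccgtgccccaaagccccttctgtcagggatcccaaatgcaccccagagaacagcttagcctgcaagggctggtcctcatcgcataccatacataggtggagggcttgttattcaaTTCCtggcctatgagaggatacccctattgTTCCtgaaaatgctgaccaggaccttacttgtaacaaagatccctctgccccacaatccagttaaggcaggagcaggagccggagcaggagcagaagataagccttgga
The windows hold 5 (Kdr), 4 (Flt1) and 2 (Tek) such matches. At least 1 match occurs in 96.0% of 32817 RefSeq promoter windows of 300 bases, with a median of 3 and quartiles of 2 and 5, so these 3 promoters are within the usual range. The hypoxia motif core ACGTG, or CACGT on the other strand, is found in 19.6% of these windows, and Vegfa, with 2 windows in the table, has 0 and 1 match.

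Kdr, which encodes the main signalling receptor, was highest in endothelial cells. It reached 482, 277 and 383 CPM in endothelial cells of tumours 1, 2 and 3, 2.73, 0 and 3.17 CPM in mural, 15.9, 3.92 and 12.2 CPM in fibroblast and 1.27, 0.463 and 0.157 CPM in epithelial cells. The endothelial values lay above the fibroblast values and these above the mural values without overlap, while mural and epithelial ranges overlapped. Kdr was called higher in endothelial than mural (7.33 ± 0.58, adjusted p 2.76e-06, edgeR's quasi-likelihood test) and endothelial than epithelial cells (8.94 ± 0.48, adjusted p 3.59e-08), in 2 of 2 tumours each, and in fibroblast than epithelial cells (4.14 ± 0.41, adjusted p 3.06e-06), in 3 of 3. It was called lower in mural than fibroblast cells (-2.52 ± 0.67, adjusted p 0.0211), a call that was lost without tumour 1 (-2.29, adjusted p 0.200). Without tumour 1 the endothelial over epithelial value was 9.75 and the fibroblast over epithelial value 4.75, and without tumour 3 they were 8.25 and 3.39.

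A Kdr UMI was seen in 80.6% (150 of 186, exact 95% interval 74.2% to 86.1%), 80.0% (12 of 15, 51.9% to 95.7%) and 64.9% (37 of 57, 51.1% to 77.1%) of endothelial cells. In epithelial cells, which were deeper and taken as the class that should lack it, the share was 1.20%, 0.337% and 0.135%; free RNA in the droplets can give UMIs of this kind. Mural cells, at 1.04%, 0% and 1.19%, rested on 6 UMIs, and the 0 of 128 in tumour 2 allows up to 2.34%, taken as 3 cells of 128. Fibroblast cells, at 7.56%, 2.75% and 4.58%, stood above the epithelial share in every tumour, also when thinned to 3000 UMIs (3.89%, 1.37% and 2.97% against 0.157%, 0.202% and 0.0694%). In the fibroblast class the endothelial pair Pecam1 and Cdh5 summed to 6.72, 1.01 and 11.1 CPM and the mesothelial pair Upk3b and Lrrn4 to 16, 4.70 and 13.6 CPM, both lowest in tumour 2 as Kdr was; their part in the Kdr level was not tested. Kdr in cells of this class with Lum, Dpt or Pdgfra was 13.5, 3.87 and 11.1 CPM, against 23.0, 3.97 and 18.9 CPM in the cells without them.

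Kdr was also found in mesothelial cells. With cells that also carried the fibroblast pair kept, a choice made after the data had been seen, 226, 72 and 60 cells could be summed. In them 2 members were called higher and 3 lower than in epithelial cells, against 39.3% of 11610 genes called (20.8% higher and 18.5% lower). Kdr reached 63.2, 48.3 and 49.8 CPM there against 1.27, 0.463 and 0.157 CPM in epithelial cells, with no overlap (6.64 ± 0.47, adjusted p 1.30e-07, edgeR's quasi-likelihood test; 3 of 3 tumours), and 7.52 without tumour 1. Pecam1 and Cdh5 together were at 2.11, 1.38 and 7.38 CPM in these cells. Apln, at 3.37, 1.38 and 0 CPM, was the other gene called higher (2.32 ± 0.65, adjusted p 0.0109), and that call was lost without tumour 1 (0.66, adjusted p 0.776). Vegfa, at 14.7, 24.8 and 24.0 CPM, was called lower (-1.95 ± 0.46, adjusted p 0.00371), as were Flt1 (4.63, 2.76 and 0 CPM; -2.34 ± 0.76, adjusted p 0.0246) and Vegfb (6.32, 4.14 and 7.38 CPM; -1.07 ± 0.36, adjusted p 0.0292). Without tumour 1 these 3 calls were lost, at -1.38, -3.71 and -0.99 (adjusted p 0.0714, 0.0674 and 0.285, by the same test), and without tumour 2 the Flt1 call was lost too (-2.06, adjusted p 0.104).

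Flt1 was highest in endothelial cells and next highest in mural cells. It had 627, 389.8 and 689 CPM in endothelial cells of tumours 1, 2 and 3, 124, 164 and 80.3 CPM in mural, 19.1, 40.4 and 2.31 CPM in fibroblast and 21.1, 30.6 and 6.85 CPM in epithelial cells. Endothelial values lay above mural and mural above fibroblast values with no overlap, whereas fibroblast and epithelial ranges overlapped. It was called higher in endothelial than mural (2.94 ± 0.52, adjusted p 0.00198, edgeR's quasi-likelihood test) and epithelial cells (5.68 ± 0.55, adjusted p 6.77e-06), in 2 of 2 tumours each, and in mural than fibroblast (2.84 ± 0.48, adjusted p 0.00113) and epithelial cells (2.74 ± 0.47, adjusted p 0.000484), in 3 of 3. Without tumour 1 endothelial over mural was 3.56 and endothelial over epithelial 6.59, and endothelial over epithelial was 4.79 without tumour 3; mural over fibroblast was 3.48 without tumour 2 and 2.24 without tumour 3. Without the tumour block the endothelial over mural call was lost (2.33, adjusted p 0.140), as was mural over fibroblast.

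Flt1 detection in mural cells, at 36.8%, 43.8% and 23.3% of cells, was well above the shares in fibroblast (8.54%, 20.2% and 1.10%) and epithelial cells (16%, 18.8% and 4.88%), although these were deeper. Thinned to 3000 UMIs, the shares were 68.3%, 66.7% and 60.7% in endothelial, 25.9%, 27.3% and 23.0% in mural, 3.72%, 7.03% and 0.648% in fibroblast and 4.76%, 7.42% and 1.77% in epithelial cells. Tumour 2 was the highest and tumour 3 the lowest in mural, fibroblast and epithelial cells. Cells that fitted no class had 50.4, 93.1 and 13.9 CPM of Flt1, in the same order of tumours. In those cells the summed endothelial check markers were 72.3, 25.5 and 68.1 CPM in tumours 1, 2 and 3. Their part in the Flt1 level was not tested.

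Nrp1, the co-receptor of VEGF and semaphorins, was shared by the vessel and stromal classes. Its levels were 448, 246 and 160.1 CPM in endothelial cells of tumours 1, 2 and 3, 304, 232 and 279 CPM in mural, 173, 81.2 and 168 CPM in fibroblast and 21.3, 26.1 and 5.27 CPM in epithelial cells. Endothelial and mural ranges overlapped and were not called apart in the fit (-0.02 ± 0.53, adjusted p 1.00, edgeR's quasi-likelihood test), with tumours 1 and 3 pointing in opposite directions. Each of the other classes exceeded the epithelial class: endothelial by 3.95 ± 0.56 (adjusted p 0.000175), mural by 3.96 ± 0.49 (adjusted p 2.94e-05) and fibroblast by 3.13 ± 0.48 (adjusted p 0.000134), in every tumour that had both. Mural over fibroblast was not called (0.83 ± 0.44, adjusted p 0.245), though it was with only these 2 classes in the fit (0.95, adjusted p 0.0108, by the same test). The endothelial call was lost without tumour 1 (3.38, adjusted p 0.0538). Without tumour 2 the mural and fibroblast values were 4.61 and 3.92, and without tumour 3 they were 3.29 and 2.28. Nrp1 in fibroblast-class cells with Lum, Dpt or Pdgfra was 207, 104 and 186 CPM, against 72.4, 51.7 and 65.9 CPM in those without.

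Within the endothelial class, Kdr, Flt1 and Nrp1 were often found in the same cells. In tumour 1, thinned to 3000 UMIs, Flt1 was seen in 92 of 123 cells with a Kdr UMI (74.8%, exact 95% interval 66.2% to 82.2%) and in 35 of 63 cells without one (55.6%, 42.5% to 68.1%). Nrp1 was seen in 74.0% (65.3% to 81.5%) of the cells with and 58.7% (45.6% to 71.0%) of the cells without a Kdr UMI. The intervals overlap slightly in each case, and tumours 2 and 3, with 15 and 28 thinned cells, gave the same order with wide intervals. These shares describe cells of single libraries and were not tested.

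**Figure D4:**
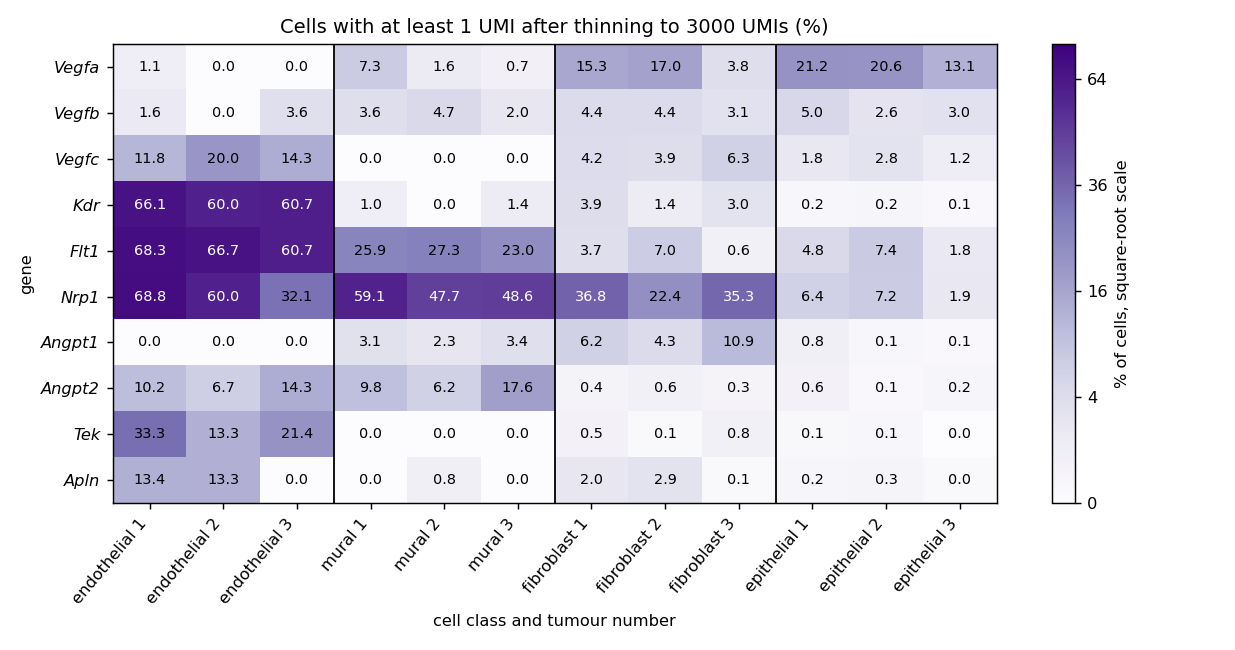
Share of cells with at least 1 UMI of each gene (%, colour on a square-root scale, value printed) after thinning to 3000 UMIs, by cell class and tumour number. Kdr and Flt1 are seen in 60% to 68.3% of endothelial cells, Nrp1 in all 4 classes drawn, and Angpt1 in no endothelial cell.

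The angiopoietins and their receptor were split between classes. Tek had 121, 71.8 and 97.0 CPM in endothelial cells of tumours 1, 2 and 3, 0, 0 and 1.06 CPM in mural, 1.60, 0.230 and 2.06 CPM in fibroblast and 0.394, 0.596 and 0.0393 CPM in epithelial cells. Every endothelial value was far above every other, and the mural class held a single UMI, in tumour 3. The ratio given next pools endothelial cells of tumours 1 and 3 against mural cells of all 3 tumours. The ratio of endothelial to mural counts, scaled by the class totals, was 331 with a 95% counting interval of 58.4 to 13146; the fitted call (adjusted p 0.000504, edgeR's quasi-likelihood test) was lost without tumour 1 (adjusted p 0.0811). Endothelial over epithelial was 7.94 ± 0.84 (adjusted p 1.43e-05), higher in 2 of 2 tumours, and between 7.25 without tumour 3 and 8.79 without tumour 2. A Tek UMI was seen in 43.0%, 26.7% and 28.1% of endothelial cells against 0.471%, 0.472% and 0.0336% of epithelial cells. Fibroblast over epithelial was not called (1.87 ± 0.74, adjusted p 0.0621), although it was without tumour 2 (3.06, adjusted p 0.00185). The same test also called it with no filter on low counts (adjusted p 0.0190) and after thinning to 3000 UMIs (0.0173). So it did with at least 2 UMIs per marker (0.0382) and with fibroblasts limited to cells with Lum, Dpt or Pdgfra (0.0395).

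Angpt1, the activating ligand of TIE2, was not seen in endothelial cells. No UMI was found in the 258 endothelial cells, against 9.11, 6.41 and 10.6 CPM in mural cells of tumours 1, 2 and 3, 17.6, 11.2 and 41.3 CPM in fibroblast and 1.71, 0.794 and 0.118 CPM in epithelial cells. The fibroblast, mural and epithelial ranges followed one another without overlap, and the fibroblast class of tumour 3 was the highest. Endothelial cells of tumours 1 and 3 were set against mural cells pooled over all 3 tumours. With the floor of 3 UMIs over the group, the endothelial level was at least 3.78-fold lower. Angpt1 was not called by edgeR's quasi-likelihood test (adjusted p 0.154). It was called without tumour 3 (adjusted p 0.0332), with no filter on low counts (0.0321) and by DESeq2 (0.0427), and by none of the other alternatives tried for this value (adjusted p 0.125 to 0.662). The pooled epithelial level was only 0.364 times the endothelial level that the same floor allows. The endothelial 0 therefore does not place endothelial below epithelial cells, which were not called apart (adjusted p 0.549, edgeR's quasi-likelihood test). Fibroblast cells exceeded epithelial cells by 4.70 ± 0.66 (adjusted p 9.39e-05, edgeR's quasi-likelihood test) and mural cells exceeded epithelial cells by 3.20 ± 0.86 (adjusted p 0.0117), in 3 of 3 tumours each. These values were 5.86 and 4.25 without tumour 1 and 3.47 and 2.45 without tumour 3. Mural over fibroblast was not called (-1.50 ± 0.70, adjusted p 0.188), with the mural class lower in 3 of 3 tumours. With only these 2 classes in the fit it was called (-1.41, adjusted p 0.0168, by the same test). Cells of the fibroblast class with Lum, Dpt or Pdgfra had 21.3, 17.5 and 44.6 CPM, against 6.81, 3.24 and 21.2 CPM in those without.

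Angpt2, the context-dependent ligand of TIE2, was found in both vessel classes. It had 65.1, 30.8 and 48.5 CPM in endothelial cells of tumours 1, 2 and 3, 35.5, 20.5 and 76.1 CPM in mural, 1.41, 3.36 and 1.07 CPM in fibroblast and 2.45, 1.26 and 0.826 CPM in epithelial cells. Endothelial and mural ranges overlapped, and both lay above all fibroblast and epithelial values. Endothelial over mural was 0.28 ± 0.67 (adjusted p 0.882, edgeR's quasi-likelihood test) with tumours 1 and 3 in opposite directions, and its sign turned without tumour 1 (-0.14) and without tumour 2 (-0.07). Against epithelial cells Angpt2 was higher by 5.09 ± 0.69 in endothelial (adjusted p 0.000123; 2 of 2 tumours) and by 4.81 ± 0.61 in mural cells (adjusted p 3.52e-05; 3 of 3), and mural over fibroblast was 4.34 ± 0.62 (adjusted p 0.000282; 3 of 3). Mural over epithelial was 5.56 without tumour 1 and 3.73 without tumour 3, and mural over fibroblast was 5.45 without tumour 2 and 3.41 without tumour 3. Thinned to 3000 UMIs, an Angpt2 UMI was seen in 10.2%, 6.67% and 14.3% of endothelial and 9.84%, 6.25% and 17.6% of mural cells, against 0.576%, 0.0675% and 0.208% of epithelial cells.

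Apln was the member that differed most between tumours. It had 82.8, 123 and 0 CPM in endothelial cells of tumours 1, 2 and 3, 0, 1.28 and 0 CPM in mural, 9.47, 11.1 and 0.330 CPM in fibroblast and 0.438, 0.794 and 0.0393 CPM in epithelial cells. Tumour 3 was the lowest of the 3 in the endothelial, fibroblast and epithelial classes and in the cells of no class (1.73, 8.25 and 0 CPM), and the ranges of neighbouring classes overlapped. A UMI was seen in 24.2% (18.2% to 31.0%, exact 95% interval), 13.3% (1.66% to 40.5%) and 0% of endothelial cells, and the 0 of 57 in tumour 3 allows up to 5.26%, taken as 3 cells of 57. The fit called Apln higher in endothelial than epithelial cells (7.01 ± 0.53, adjusted p 7.56e-07, edgeR's quasi-likelihood test) and endothelial than mural cells (adjusted p 3.57e-05), but in only 1 of the 2 fitted tumours. Without tumour 1 the signs turned, to -1.42 and -1.80 (adjusted p 0.970 and 1.00, by the same test), and without the tumour block the call against mural cells was lost (adjusted p 0.0597). The ratio of endothelial to mural counts was 196 (counting interval 34.3 to 7835), from 1 mural UMI. This ratio pools tumours: its 89 endothelial UMIs were all in tumour 1 and the mural UMI in tumour 2. It therefore does not compare classes within a tumour. Fibroblast over epithelial was 4.03 ± 0.41 (adjusted p 3.97e-06), higher in 3 of 3 tumours and between 3.68 and 4.15 when 1 tumour was left out. Mural cells were called lower than fibroblast cells (adjusted p 0.00243), with a ratio of counts of 22.4-fold (counting interval 3.99 to 886) in favour of the fibroblast class; the call was lost without tumour 1 (adjusted p 0.120).

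**Figure D5:**
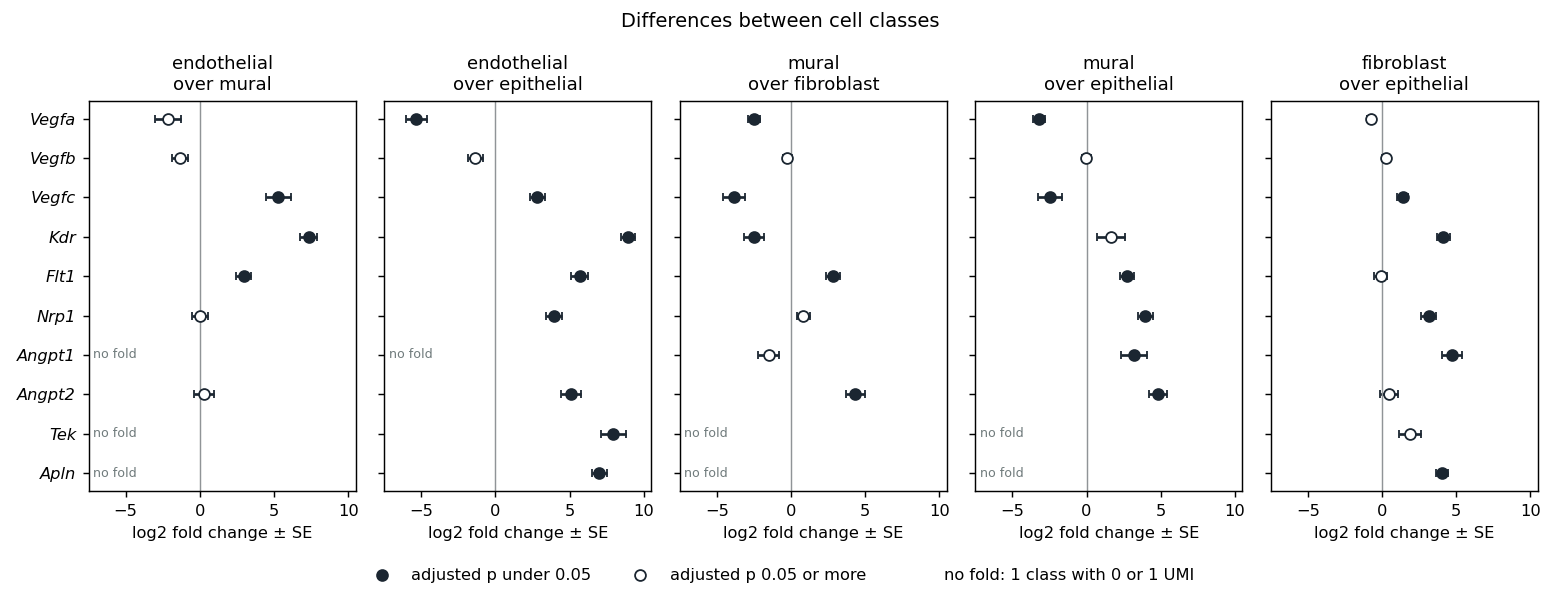
Log2 fold change ± SE (x axis) of each gene in 5 comparisons of cell classes, with filled points for an adjusted p under 0.05; where 1 class held 0 or 1 UMI the fitted value is replaced by the words "no fold". Kdr lies at 7.33 over mural and 8.94 over epithelial cells in the endothelial class, and Vegfa at -5.35 in endothelial over epithelial cells.

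The other genes of the pathway, a list of 18 ligands, receptors and modulators with 17 tested, moved in both directions. In endothelial over mural cells 9 of the 17 were called higher and 2 lower, against 6.12% higher and 6.34% lower over all genes, with a median log2 fold change of 1.16 against -0.08. In endothelial over epithelial cells 10 were higher and 2 lower, against 10.7% and 12.2%, with a median of 2.13 against -0.22. In mural over fibroblast cells 4 were higher and 6 lower, against 5.98% and 9.28% (medians -0.52 and -0.17), in mural over epithelial cells 6 were higher and 3 lower, against 16.2% and 18.7% (medians 0.52 and -0.13), and in fibroblast over epithelial cells 10 were higher and 3 lower, against 22.3% and 17.5% (medians 1.19 and 0.02). Tie1, the TIE2 partner receptor, had 206.5, 123 and 238 CPM in endothelial against 0.394, 0.331 and 0.630 CPM in epithelial cells of tumours 1, 2 and 3 (8.52 ± 0.42, adjusted p 1.53e-08, edgeR's quasi-likelihood test), and mural cells held 2 of its UMIs. Aplnr, the apelin receptor, had 449, 287 and 184 CPM in endothelial against 0.832, 0.265 and 0.236 CPM in epithelial cells (9.01 ± 0.35, adjusted p 4.18e-09). Both receptors were higher in the endothelial cells of every tumour, and Aplnr, unlike Apln, was seen in the endothelial cells of tumour 3. Ptprb, a vascular phosphatase that acts on TIE2, had 419, 215 and 442 CPM in endothelial against 8.20, 5.13 and 9.51 CPM in mural cells (5.60 ± 0.27, adjusted p 1.55e-07).

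Among the other ligands, Pgf and the angiopoietin-like Angptl2 were highest in mural cells. Angptl2 averaged 4.29 ± 0.799 CPM in endothelial cells (SD, n = 2), 166 ± 30.6 CPM in mural, 90.4 ± 15 CPM in fibroblast and 24.1 ± 4.39 CPM in epithelial cells (SD, n = 3 each), and its mural level was above the fibroblast level in 3 of 3 tumours (0.75 ± 0.17, adjusted p 0.00897, edgeR's quasi-likelihood test). Pgf had 71.1, 80.7 and 81.4 CPM in mural cells of tumours 1, 2 and 3 against 10.3, 4.70 and 3.23 CPM in epithelial cells (3.72 ± 0.41, adjusted p 9.35e-06, edgeR's quasi-likelihood test). Figf, which encodes VEGF-D, had 84.4, 16.7 and 56.2 CPM in fibroblast against 4.03, 3.51 and 2.24 CPM in epithelial cells (3.84 ± 0.42, adjusted p 6.70e-06). Angpt4, a further angiopoietin, had 34.0, 8.02 and 42.1 CPM in fibroblast against 0.438, 0.265 and 0.315 CPM in epithelial cells (6.30 ± 0.40, adjusted p 1.19e-07). The folds of Pgf, Figf and Angpt4 were positive in 3 of 3 tumours, and the fibroblast levels of Figf and Angpt4 were lowest in tumour 2, as those of Angpt1 were. For Figf and Angpt4 mural cells were lower than fibroblast cells, with 1.82, 2.56 and 4.23 CPM of Figf (-4.23 ± 0.62, adjusted p 0.000355) and 0.911, 0 and 2.11 CPM of Angpt4 (-4.83 ± 0.58, adjusted p 9.85e-05).

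A list of 18 endothelial genes known to act with or below these receptors included Dll4, Esm1, Erg and Sox18. In endothelial over mural cells 17 of them were called higher and 1 was not called, against 6.12% higher over all genes. In endothelial over epithelial cells 18 were called higher, against 10.7%. Emcn, Egfl7, Eng and Plvap of this list also served to check the class name. The class was chosen by Pecam1 and Cdh5, so high counts of endothelial genes follow from the rule and are no separate result. The median log2 fold changes of the list were 6.22 and 7.51. With genes at 0 in mural cells set to their bound, the first median was 4.77. In mural cells 7 genes of the same list were higher and 1 lower than in fibroblast cells, against 5.98% and 9.28% of all genes. Apold1, an endothelial stress-response gene, led with 7.36 ± 0.24 (adjusted p 2.65e-09, edgeR's quasi-likelihood test), followed by Emcn with 5.73 ± 0.37 (adjusted p 4.60e-07). In mural cells, Pecam1 and Cdh5 together stood at 3.64, 0 and 3.17 CPM. Of the 14 hypoxia genes, 1 was higher and 13 were not called in endothelial over mural cells, with 12.5% of all genes called in either direction. In endothelial over epithelial cells 3 were higher and 2 lower, against 22.9% of all genes called, and in fibroblast over epithelial cells 2 were higher and 2 lower, against 39.8% of all genes called. The medians were 0.15, -0.31 and 0.16 in these comparisons, against -0.08, -0.22 and 0.02 over all genes. Of 16 further vessel-related factors and receptors, 7 were higher and 5 lower in endothelial over mural cells, against 12.5% of all genes called, with a median of 0.30. In fibroblast over epithelial cells 9 were higher and 5 lower, against 39.8%, with a median of 2.03.

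Across the 11 summed profiles, the genes with the most similar pattern of log2(CPM + 1) among 14809 were, by Pearson's coefficient, Slco2b1 (r = 0.98), Aplnr (0.98) and Sema3g (0.97) for Kdr, and Erg (0.99), Unc45b (0.99) and Clec14a (0.99) for Tek. Flt1 was most similar to Bak1 (0.96), Nrp1 to Ifitm3 (0.98), Angpt1 to Amn (0.98), Angpt2 to Olfml2a (0.97) and Apln to Apol10b (0.98). Vegfb was most similar to Ndufa13 (0.94) and Vegfc to Gfod1 (0.95). These coefficients are descriptions over points that share tumours, cell depth and the class rule.

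The authors' deposited table gives a log2 fold change per gene for each of 19 clusters, from cells that were not separated by tumour in it. In the authors' deposited table the highest values of Kdr (6.57), Flt1 (4.21), Nrp1 (2.73), Angpt2 (4.65), Tek (7.62), Apln (4.28) and Vegfc (2.05) all belonged to cluster 18, where Pecam1 had 8.80. In the authors' deposited table clusters 12 and 15, where Rgs5 had 5.60 and 5.44, gave Angpt2 3.00 and 4.14, and cluster 9, where Upk3b had 8.40, gave Kdr 2.88. Vegfa was highest in clusters 3 (1.58) and 4 (1.02) and Angpt1 in clusters 2 (3.36) and 4 (2.53) of the authors' deposited table. In that deposited table Epcam had 0.77 and Col3a1 -3.77 in cluster 3. Epcam had -4.49 and Col3a1 2.77 in cluster 4, and -3.55 and 2.14 in cluster 2.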

How the data were processed

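The 10x 3' v2 libraries of the 3 tumours hold cells sorted against CD45, CD31 and PDGFRa, per the labels' protocols. Cell Ranger 2.1.1 and Seurat 3.0 are named in the submitters' processing notes; no genome build is given in the sources used here. Raw UMI counts, not normalized, were deposited by the authors as 1 matrix, and each barcode ends in its tumour's number, per the labels. A second deposited table lists log2 fold changes per cluster, per the file headers; these log2 values of the authors were copied untested.

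Cells were dropped for fewer than 500 genes (11, 0 and 16 by tumour), for a mitochondrial share above 20% (64, 15 and 176) or as doublets by Scrublet in scanpy 1.11.5 (68, 93 and 140). Counts were summed per tumour and class, with at least 20 cells, giving 11 sums fitted together with edgeR 4.0.16 (R 4.3.3; quasi-likelihood test, TMM, filterByExpr, Benjamini-Hochberg at 0.05). The tumour was a block, since same-numbered sums share a tumour. The correlations of their deviations from the class means were 0.32 to 0.63. The 10 marker genes of the rule were left out of the calls. CPM is UMIs per 1000000 UMIs of the sum. Cells were thinned to 3000 UMIs for shares, leaving out shallower cells only in tumour 3 (29 endothelial, 105 mural, 333 fibroblast, 91 epithelial). Intervals are exact binomial at 95%; the limit given beside a share of 0 is 3 counts of the total, which is smaller than the upper bound of that interval. The test was also run on simulated counts that had no tumour effect, so that run does not show how it behaves on these tumours. Endothelial over epithelial cells and the Vegfa-detected comparisons were not simulated.

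All 10 genes are named; from other lists, at most the 4 genes with the largest change among those called in the same direction in every tumour, and for likeness the genes with the highest r, which for Vegfa is not reported here. Genes named beyond this rule (Pgf, Angptl2, Adm, Bnip3 and other members counted) were chosen after their values were seen. The genes and lists were chosen with earlier results of these data known. Alternatives were RLE scaling, DESeq2 1.42.0, no filter, no block, other class and cell rules, and each tumour left out.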

Additional observations from a re-analysis of the deposited data

Results flagged for a closer look

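The 4426 kept cells that fitted no class were used in no comparison, and each of the 10 genes had more UMIs there than the 0.0744 CPM that a count of 0 in their 40342277 UMIs allows. Pooled over the 3 tumours, Flt1 had 68.8 CPM, Vegfa 54.6, Nrp1 33.4, Vegfb 19.2 and Vegfc 15.2 CPM in these cells. Apln had 5.33 CPM, Angpt2 4.02, Angpt1 2.78, Kdr 2.58 and Tek 0.496 CPM. In the same cells the summed epithelial check markers reached 6228, 1890 and 4359 CPM in tumours 1, 2 and 3 and the acinar markers 7734, 509 and 5242 CPM; their part in these levels was not tested. Groups of 2 or 3 tumours were too small for a test of single samples that stand apart.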

How the results depend on the processing

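Of 434 alternative values of members called in a comparison of classes or against mesothelial cells, 408 kept direction and call, 24 missed the threshold and 2 turned direction; of 264 values of members not called, 218 stayed uncalled in the same direction, 20 became called and 26 turned. Both turned called values are Apln without tumour 1. Other settings for mesothelial over epithelial cells gave no value, since the rule leaves 11 cells.

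Leaving out 1 tumour gave the following lowest and highest values. For endothelial over mural cells, genes called numbered 255 to 864 higher and 196 to 936 lower, members 3 to 5 higher and 0 to 1 lower, and the log2 fold changes ran from -0.70 to 0.55 for Nrp1, -0.14 to 1.15 for Angpt2 and -1.80 to 11.68 for Apln. For endothelial over epithelial cells these were 511 to 1644 and 310 to 1887 genes, 0 to 2 members lower, and -1.42 to 7.15 for Apln. For mural over fibroblast cells they were 498 to 838 and 628 to 1132 genes and 2 to 4 members lower. For mural over epithelial cells they were 1615 to 2264 genes lower, 1 to 2 members lower, -0.38 to 0.19 for Vegfb, -4.57 to 0.39 for Apln and -5.64 to 1.11 for Tek. For fibroblast over epithelial cells they were 1674 to 2417 genes lower, 0 to 1 members lower, -0.036 to 0.41 for Vegfb, -0.37 to 1.26 for Angpt2 and -0.53 to 0.079 for Flt1. For mesothelial cells with the fibroblast pair kept they were 1364 to 2175 genes higher, 1135 to 1939 lower, and 1 to 2 members higher and 0 to 3 lower. For Vegfa-detected cells they were 80 to 303 genes higher, 54 to 249 lower and 5 to 9 hypoxia genes in the epithelial class, and 64 to 135, 18 to 58 and 4 to 10 in the fibroblast class. With tumour 1 left out the endothelial class is 1 sum, assumed to vary like the others, and fitted values against a class with 0 or 1 UMI are no bounds.

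Without the replicate block, genes called were 603 higher and 561 lower in endothelial over mural (members 3 higher), 995 lower in endothelial over epithelial, 487 higher and 679 lower in mural over fibroblast (members 1 higher and 1 lower), 1755 lower in mural over epithelial (members 1 lower), 2185 higher and 1514 lower in fibroblast over epithelial, and 1378 lower in mesothelial over epithelial cells (members 1 higher and 1 lower). Without it the Vegfa-detected cells gave 0 genes higher and 0 lower in either class and 0 hypoxia genes (edgeR; 129 and 106 genes at an unadjusted p under 0.05). The block also decided these calls, given with the value and adjusted p without it (edgeR's quasi-likelihood test): Flt1 (2.33, 0.140) and Apln (6.94, 0.0597) in endothelial over mural, Vegfa (-2.55, 0.0511), Kdr (-2.44, 0.148), Flt1 (2.38, 0.104) and Apln (-4.40, 0.293) in mural over fibroblast, Vegfc in mural over epithelial (-2.46, 0.0620) and fibroblast over epithelial (1.31, 0.108), and Vegfb (-0.998, 0.0935), Flt1 (-2.43, 0.101) and Apln (2.55, 0.275) in mesothelial over epithelial cells. It changed no other call of a member. Nrp1 turned to 0.11 in endothelial over mural, Vegfb to 0.030 in mural over epithelial and Flt1 to 0.15 in fibroblast over epithelial cells.

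DESeq2 moved the median of all genes by 0.17 in endothelial over epithelial cells, called 1 member lower in endothelial over mural cells, and turned Vegfb (0.027) and Apln (0.62) in mural over epithelial cells. In Vegfa-detected cells it called 40 genes higher and 12 lower with 3 hypoxia genes in the epithelial class, where 7 of the 14 had no adjusted p, and 16 and 2 with 3 hypoxia genes in the fibroblast class, where edgeR called 50 and 16. RLE scaling turned Nrp1 (0.0070) in endothelial over mural and Vegfb (0.028) in mural over epithelial cells and called 1 member, Vegfa, lower in fibroblast over epithelial cells, as did no filter on low counts, sums from 10 cells and thinning. No filter also called 1 member lower in endothelial over mural cells, turned Tek (-0.063) in mural over epithelial cells, and gave 262 genes lower in Vegfa-detected epithelial cells and 105 higher and 65 lower in fibroblast cells. A minimum of 2 UMIs per marker turned Nrp1 (0.11) and Vegfb (0.14), sums from 10 cells turned Tek (-0.0063), both with 2 members lower in endothelial over epithelial cells, and thinning turned Nrp1 (0.055), Tek (-2.83) and Apln (0.076), each in the comparison named for it above. Fitting the compared classes alone turned Vegfb (0.00060) in mural over epithelial cells and called Nrp1 and Angpt1 in mural over fibroblast cells. Limiting fibroblasts to cells with Lum, Dpt or Pdgfra turned Angpt2 (-0.097) and called Tek higher, each against epithelial cells. The cause of these shifts was not tested. Depth limits the genes with under 10 UMIs in a class: Vegfa, Vegfb and Angpt1 in endothelial cells and Vegfc, Kdr, Tek and Apln in mural cells.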
